A study of Mus musculus with 10 samples.

Results

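The genes described here encode the proteins that fold, hydroxylate, trim and crosslink collagen. Collagen chains enter the endoplasmic reticulum, where prolyl 4-hydroxylases (P4ha1, P4ha2) modify prolines that stabilise the triple helix and lysyl hydroxylases (Plod1, Plod2) modify lysines that later carry sugars and crosslinks. The chaperone Serpinh1, also called Hsp47, binds the folded procollagen on its way to secretion. Outside the cell Pcolce enhances removal of the carboxyl-terminal propeptide, and the lysyl oxidases Lox, Loxl1 and Loxl2 oxidise lysines of collagen and elastin so that fibrils become crosslinked. Cercam belongs by sequence to the family of collagen galactosyltransferases, although its own protein is not known to carry that activity. In skeletal muscle fibrillar collagen is made mainly by fibroblasts of the connective tissue and by tendon cells, not by the muscle fibres.

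The 10 gene symbols were chosen by function and selected on the log2 differences between knockout and control muscle, which were already known, so the members' differences between those groups are given as a description and support nothing. Probe sets annotated to 1 of these symbols alone were taken. They numbered 17, out of 45101 on the array, and covered 9 of the 10 genes. The 2 probe sets that name Loxl2 carry a second gene symbol as well, so Loxl2 has no value here. Of the 17 probe sets, 13 passed the filter on dim signal (log2 intensity averaging at least 4 across the 10 arrays), among 21154 probe sets for 10704 genes that did. All 9 genes kept at least 1 probe set. The dimmest of the 13 was Loxl1 1436063_at at a mean of 4.17, followed by Plod2 1416687_at at 4.20. Just under the filter lay P4ha1 1426519_at at 3.86, and the other 3 probe sets that failed, of Plod1, Plod2 and Lox, lay at 2.42, 2.96 and 2.18. No probe set passed only through a high control group, since the knockout means of all 13 also exceeded 4.

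RNA came from the gastrocnemius of 10 males, each 7.5 months old and of C57BL/6 background, with 1 array per mouse. The 5 knockout mice (Floxed_Mstn in the labels) had floxed myostatin genes, and the 5 control mice (WT_Mstn) had normal ones. All 10 carried the CAGG-CreER transgene and were given 8 tamoxifen injections from 4 months of age, so Cre and tamoxifen were common to both groups and the floxed alleles were not. The CAGG promoter is active in most cell types, so recombination was not restricted to muscle fibres. Myostatin is a secreted inhibitor of muscle growth, and the study asked how its loss in mature animals changes muscle transcripts. Its own transcript is not analysed here, so it provides no check of the genotype labels.

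Per array, 46.5% to 47.6% of probe sets reached a log2 intensity of 4, and array pairs correlated at 0.944 to 0.991. The first principal component took up 53.6% of the variance and followed the bacterial hybridisation controls (7 probe sets for RNA added to every array). These controls averaged 13.15 ± 0.25 in knockouts and 13.12 ± 0.14 in controls (log2 intensity, SD, n = 5 each, exact permutation p = 0.786, two-sided). The 3′ minus 5′ difference of Gapdh, a measure of RNA integrity, was 0.45 ± 0.03 in knockouts and 0.49 ± 0.03 in controls (exact permutation p = 0.0317, two-sided, unadjusted). That of beta-actin was 1.40 ± 0.05 in knockouts and 1.47 ± 0.06 in controls (exact permutation p = 0.0873, two-sided, unadjusted). The part of RNA integrity in the differences below was not tested. The 8 muscle fibre markers examined were bright in both groups (Acta1, skeletal actin, averaged 15.23 in knockouts and 15.23 in controls, log2), and 0 of them passed in limma or had an unadjusted p under 0.05. Their median difference was 0.04, with 1 lower and 7 higher in knockouts, beside 51.5% of all tested genes lower. The highest intensity of each array was 16.01 to 16.07 (log2), and whether markers this bright could show a change was not tested.

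Values of the collagen-processing genes in knockout muscle lay below those in control muscle at some steps and near them at others. Cercam, Lox, Pcolce and Serpinh1 had the lowest means relative to controls (differences of -1.32, -0.84, -0.51 and -0.42 on the log2 scale). P4ha2, Plod1 and Loxl1 lay between -0.28 and -0.20, and P4ha1 and Plod2 had means within 0.02 of the control means. Knockout means were below control means for 8 of 9 genes by their brightest probe set, beside 51.5% of all tested genes. The median difference of the 9 genes was -0.28 on the log2 scale, against -0.0049 for all tested genes. Of the 13 member probe sets 1 passed an adjusted p of 0.05 in limma, that of Cercam, where 0.0993% of all tested probe sets passed in either direction. Groups that did not overlap, with every knockout below every control, were seen in 3 of the 13 probe sets, beside 0.893% of all tested probe sets. The groups are bulk tissue, in which fewer cells of a type and less RNA per cell cannot be told apart.

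**Figure D1:**
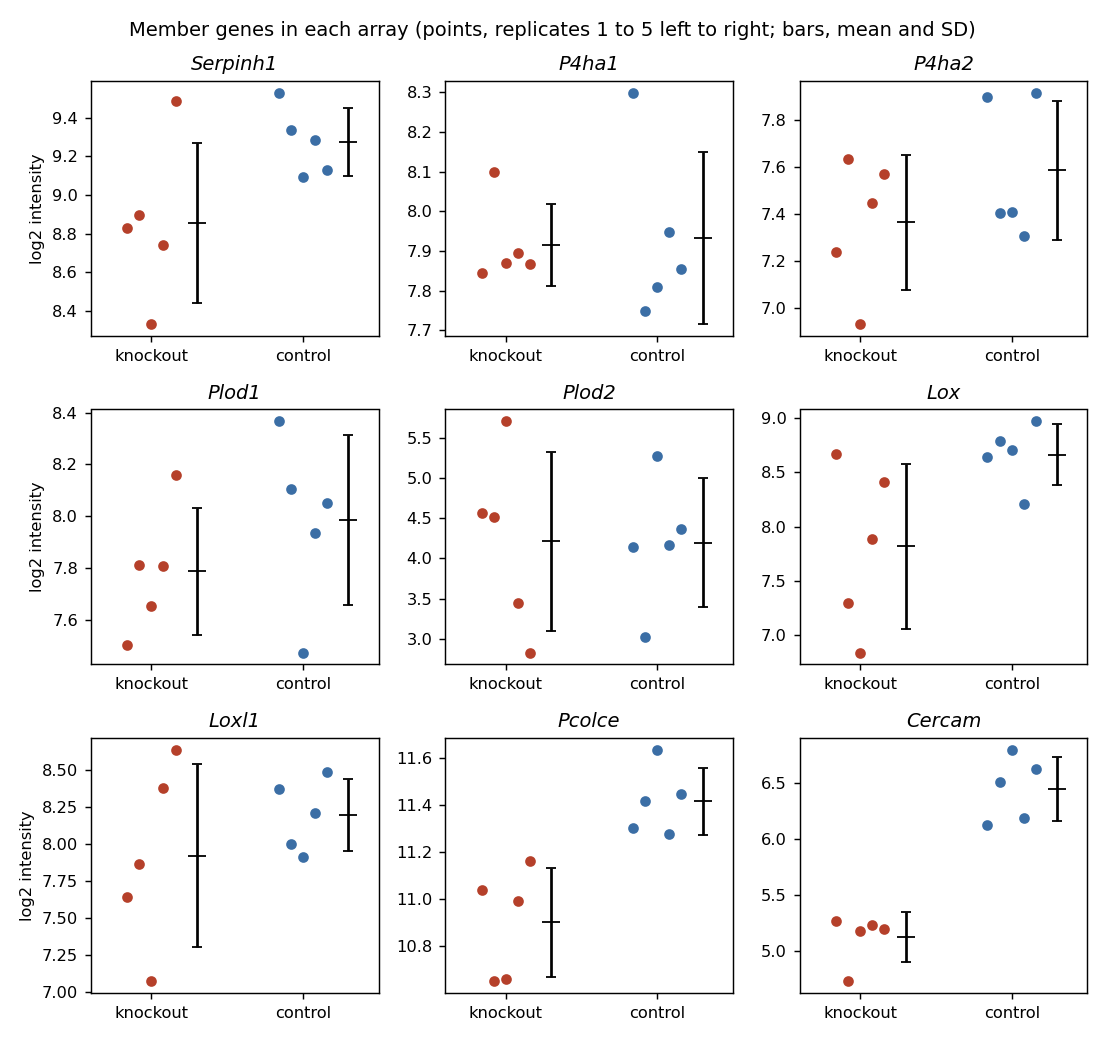
Log2 intensity of the brightest probe set of each of the 9 member genes in every array, knockout to the left of control, with points for the 5 mice of each group and a bar for mean and SD. For Cercam and Pcolce all 5 knockout points lie below all control points, while the P4ha1 and Plod2 points of the groups overlap.

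Serpinh1, the collagen chaperone, had log2 intensities of 8.83, 8.90, 8.33, 8.74 and 9.48 in knockouts 1 to 5, against 9.53, 9.34, 9.10, 9.28 and 9.13 in controls 1 to 5. Knockout 5 lay near the highest control, and the other 4 knockouts lay below every control. The difference was -0.42 ± 0.19 (log2, SE of the limma fit), a 1.34-fold lower mean in knockouts. The second Serpinh1 probe set gave -0.49 ± 0.16 with the same 4 knockouts below all controls, and its deviations among mice of the same group followed those of the first (Pearson's r = 0.934 over 10 arrays, as a description). Leaving out knockout 5 brought the first probe set to -0.58, and leaving out knockout 3, the lowest, brought it to -0.29. Without the 3 arrays of highest hybridisation controls the first probe set gave -0.28 and the second -0.32.

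The prolyl hydroxylase subunits had overlapping groups. P4ha1, a catalytic subunit of prolyl 4-hydroxylase, was 7.92 ± 0.10 in knockouts and 7.93 ± 0.22 in controls (log2 intensity, SD, n = 5 each), a difference of -0.02 ± 0.11 with a 95% interval from -0.26 to 0.23. Knockout 2 stood above the other knockouts at 8.10 and control 1 above the other controls at 8.30. P4ha2, the alternative catalytic subunit, was 7.36 ± 0.29 in knockouts and 7.59 ± 0.30 in controls, a difference of -0.22 ± 0.17, and 2 knockouts lay below the lowest control. That difference was -0.11 without knockout 3, -0.14 without control 1 or control 5, and -0.08 without the 3 arrays of highest hybridisation controls. The second P4ha1 probe set was too dim to test, at 4.07 ± 0.83 in knockouts and 3.66 ± 0.49 in controls.

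Plod1, which hydroxylates lysines of the collagen helix, was 7.79 ± 0.24 in knockouts and 7.99 ± 0.33 in controls, a difference of -0.20 ± 0.17 with overlapping groups. It was -0.10 without control 1, -0.13 without knockout 1 and -0.33 without control 3. Plod2, whose product hydroxylates lysines of the telopeptides and so favours stable crosslinks, was just above the filter on dim signal. Its values were 4.57, 4.52, 5.71, 3.44 and 2.83 in knockouts 1 to 5, against 4.15, 3.02, 5.27, 4.17 and 4.37 in controls 1 to 5. Array 3 was the highest in both groups, and the spread within groups was wider than that of 98.4% of tested genes (pooled SD 0.97 log2). The difference of 0.02 ± 0.56, with a 95% interval from -1.22 to 1.26, spans large changes in both directions, so a change of Plod2 was not detectable at this signal.

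Pcolce, the enhancer of procollagen C-proteinase, separated the groups in both of its probe sets. By the brightest, knockouts 1 to 5 had 11.04, 10.65, 10.66, 10.99 and 11.16, against 11.30, 11.41, 11.63, 11.28 and 11.45 in controls 1 to 5. Every knockout lay below every control. The difference was -0.51 ± 0.12 (log2, SE), a 1.43-fold lower mean in knockouts. The second probe set averaged 9.12 ± 0.25 in knockouts and 9.73 ± 0.12 in controls, a difference of -0.62 ± 0.12 or 1.53-fold lower. Neither probe set passed the threshold over all probe sets.

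Lox, the main lysyl oxidase, had the widest spread of the genes lower in knockouts. Its log2 intensities were 8.67, 7.30, 6.84, 7.88 and 8.41 in knockouts 1 to 5, against 8.64, 8.79, 8.70, 8.21 and 8.97 in controls 1 to 5. Knockouts 2, 3 and 4 lay below every control, knockout 5 lay inside the control range and knockout 1 matched the control mean. The difference was -0.84 ± 0.33, a 1.79-fold lower mean in knockouts, and it moved to -0.60 without knockout 3 and -1.05 without knockout 1. The second Lox probe set gave -0.74 ± 0.35 with 2 knockouts below the lowest control. The SD of the brightest probe set was 0.76 in knockouts and 0.28 in controls.

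Loxl1, a lysyl oxidase active on elastin, had 7.64, 7.87, 7.07, 8.38 and 8.64 in knockouts 1 to 5, against 8.37, 8.00, 7.91, 8.21 and 8.49 in controls 1 to 5. Knockouts 1, 2 and 3 lay below the lowest control and knockout 5 lay above the highest. The difference was -0.28 ± 0.27, and the dimmer Loxl1 probe set gave -0.16 ± 0.25. Without the 3 arrays of highest hybridisation controls they were 0.03 and 0.0031, and without knockout 3 alone -0.06 and -0.0093.

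Cercam showed the largest difference of the 9 genes. Its log2 intensities were 5.27, 4.73, 5.18, 5.23 and 5.20 in knockouts 1 to 5, against 6.12, 6.50, 6.80, 6.19 and 6.62 in controls 1 to 5. All knockouts lay below all controls, and the lowest control exceeded the highest knockout by 0.85. The difference was -1.32 ± 0.15 (log2, SE), a 2.50-fold lower mean in knockouts. Cercam has a single probe set, so no second one bears on this value. Its call was lost when any 1 of 8 arrays was left out (control 2, 3, 4 or 5, knockout 1, 2, 3 or 4), although its difference stayed between -1.41 and -1.23 in the 19 alternative settings run.

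**Figure D2:**
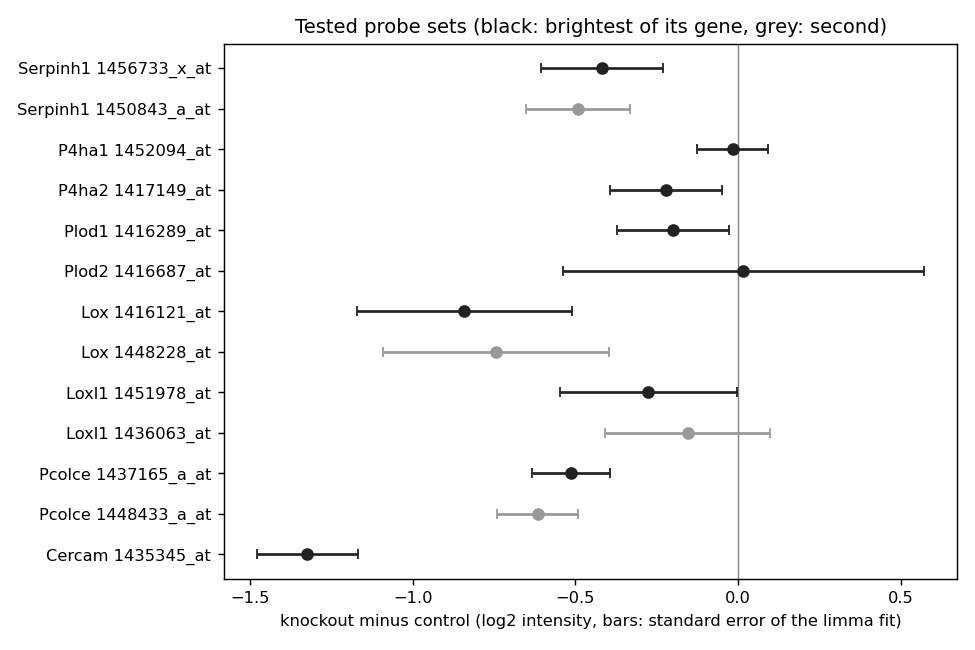
Difference of knockout and control means (horizontal axis, log2 intensity) for the 13 tested probe sets, with bars for the standard error of the limma fit. Cercam lies farthest from 0 at -1.32, and probe sets of the same gene lie within their standard errors of each other.

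The promoters of P4ha1, P4ha2, Serpinh1 and Cercam are printed for motifs that known regulators bind. Hydroxylases and lysyl oxidases are known targets of hypoxia-inducible factors, whose binding sites can hold ACGTG. Collagen-processing genes are known targets of Smad proteins, which can bind CAGAC. Other forms of these binding sites were not searched, so a promoter without a match may still hold one. Promoters of 6 of the 10 members were examined from the RefSeq promoter table (GRCm38.p6), and those of the others were not. The 250 bases before the gene start were searched on both strands for both motifs, which do not overlap in the sequences found. ACGTG was in 3 of the 6 (P4ha1, P4ha2 and Serpinh1), beside 16.6% of all 32851 promoters, and CAGAC was in 3 (Cercam, Plod1 and Serpinh1), beside 42.2%. Pcolce held neither in this window. The sequences below run 5′ to 3′ and end just before the gene start, and capitals mark the motifs as they read on the gene's strand (CACGT and GTCTG are the reverse complements).
P4ha1, chr10:59323046-59323295, plus strand: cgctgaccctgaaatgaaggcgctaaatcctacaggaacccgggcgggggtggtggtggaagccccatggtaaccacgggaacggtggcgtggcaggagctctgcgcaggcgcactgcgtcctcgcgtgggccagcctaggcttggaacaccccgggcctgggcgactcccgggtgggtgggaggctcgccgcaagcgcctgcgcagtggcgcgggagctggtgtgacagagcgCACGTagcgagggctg
P4ha2, chr11:54100674-54100923, plus strand: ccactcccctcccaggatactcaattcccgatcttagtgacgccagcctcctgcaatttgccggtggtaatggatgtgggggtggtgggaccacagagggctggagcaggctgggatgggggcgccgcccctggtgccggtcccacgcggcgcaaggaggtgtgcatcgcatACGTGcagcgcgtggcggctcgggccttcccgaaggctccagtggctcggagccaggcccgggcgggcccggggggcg
Serpinh1, chr7:99353240-99353489, minus strand: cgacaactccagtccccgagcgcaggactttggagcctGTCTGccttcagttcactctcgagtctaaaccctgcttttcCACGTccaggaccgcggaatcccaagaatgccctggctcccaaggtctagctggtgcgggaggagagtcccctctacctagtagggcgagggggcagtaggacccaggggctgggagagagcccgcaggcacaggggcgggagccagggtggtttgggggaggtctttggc
Cercam, chr2:29869244-29869493, plus strand: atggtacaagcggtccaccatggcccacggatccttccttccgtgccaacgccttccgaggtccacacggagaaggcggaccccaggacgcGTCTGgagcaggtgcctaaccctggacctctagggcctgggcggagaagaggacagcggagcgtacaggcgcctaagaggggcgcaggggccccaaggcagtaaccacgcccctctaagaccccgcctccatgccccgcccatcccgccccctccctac
The ACGTG match lies 16 to 12 bases before the start in P4ha1, 78 to 74 in P4ha2 and 171 to 167 in Serpinh1, and the Cercam match to CAGAC lies 159 to 155 bases before it. P4ha1 and P4ha2 thus share a motif that Serpinh1 also has. Whether either motif bears on the differences between the groups was not tested. A match describes letters in a window and not a bound site.

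The wider pathway was described by lists of genes chosen for function with earlier results of these data known. Of 33 other genes of collagen modification and secretion, 30 were on the array and 25 were tested, and 0 passed in either direction in limma, beside 0.131% of all tested genes. At an unadjusted p under 0.05 there were 4, beside 8.9% of all tested genes. Their median difference was -0.12, with 21 lower and 4 higher in knockouts, beside 51.5% of all tested genes lower. The lowest p belonged to Sparc, a collagen-binding matricellular protein (-0.35 ± 0.07, adjusted p = 0.164), Creb3l1, a transcription factor that activates collagen genes (-0.60 ± 0.14, adjusted p = 0.255, with a knockout mean of 3.85 below the filter level), Tmem38b, an endoplasmic reticulum cation channel (0.18 ± 0.07, adjusted p = 0.574), and Bmp1, the procollagen C-proteinase that Pcolce enhances (-0.52 ± 0.22, adjusted p = 0.621). Sparc passed under a variance trend with robust fitting (adjusted p = 0.0201) and Creb3l1 passed without knockout 5 (adjusted p = 0.0388). Creb3l1 passed the filter on dim signal only through its controls (mean 4.455). The 21 lower genes and the 4 at an unadjusted p under 0.05 thus include a gene that had to be lower. Some further genes are named after their values were seen. P4hb, the shared beta subunit of prolyl 4-hydroxylase, had -0.05 ± 0.06 and Plod3, a multifunctional lysyl hydroxylase, -0.03 ± 0.32. The collagen galactosyltransferases Colgalt1 and Colgalt2, relatives of Cercam, had -0.04 ± 0.08 and -0.04 ± 0.09. Adamts3, a procollagen N-proteinase, was too dim to test, with means of 2.99 in knockouts and 4.30 in controls.

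Genes of elastic fibres and of matrix partners of lysyl oxidases had lower values without passing. Of all tested genes, 51.5% had lower means in knockouts, 0.131% passed in limma and 8.9% had an unadjusted p under 0.05. All 9 tested of the 13 listed elastic fibre and matrix genes had lower means in knockouts, with a median of -0.53. In limma 0 of them passed (7 at an unadjusted p under 0.05). One of the 9 and of the 7, Mfap2, passed the filter only through its controls (means of 3.93 in knockouts and 4.41 in controls), so these counts include a gene that had to be lower. Eln, elastin itself, had -0.84 ± 0.22 (adjusted p = 0.331), and Postn, a matricellular protein that promotes lysyl oxidase activation, had -0.87 ± 0.21 (adjusted p = 0.280). Mfap4 had -0.85 ± 0.25 (adjusted p = 0.437) and Fn1, fibronectin, -0.53 ± 0.19 (adjusted p = 0.535). Hypoxia-induced genes showed no common direction. Of 13 tested, 7 were lower and 6 higher in knockouts with a median of -0.01, and 0 passed in limma (1 at an unadjusted p under 0.05). The lowest p among them were those of Ndrg1 (-0.27 ± 0.12, adjusted p = 0.645), Pfkfb3, a regulator of glycolysis (0.43 ± 0.22, adjusted p = 0.722), the glucose transporter Slc2a1 (-0.22 ± 0.12, adjusted p = 0.730) and Vegfa (-0.18 ± 0.11, adjusted p = 0.782).

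The fibrillar collagens that these enzymes modify (5 genes) had lower means in knockouts, with a median of -0.71, and 1 of them, Col1a2, passed in limma (11.29 ± 0.22 in knockouts and 12.13 ± 0.17 in controls, log2 intensity, SD, n = 5 each, adjusted p = 0.0494). That is 1 of 5 genes, beside 0.131% of all tested genes. All 5 had lower means, beside 51.5% of all tested genes. The call was lost in 12 of 20 alternatives, namely without any 1 of 9 arrays (every one but knockout 5), without the 3 arrays of highest hybridisation controls, with no filter (adjusted p = 0.102) and with the replicate number as a block (adjusted p = 0.193). Col5a2 had -0.93 ± 0.15 (adjusted p = 0.0838) and Col1a1 -0.71 ± 0.13 (adjusted p = 0.104). Col5a2 passed in 6 of 20 alternatives, with adjusted p-values from 0.00940 to 0.262 over all of them, and Col1a1 in 1, the variance trend with robust fitting (adjusted p = 0.0248). Col5a1 had -0.61 ± 0.16 (adjusted p = 0.348) and Col3a1 -0.41 ± 0.11 (adjusted p = 0.376).

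Markers of the cells that make collagen also had lower values. Over all tested genes 51.5% had a lower mean in knockouts and 8.9% had an unadjusted p under 0.05. Mfap5 is in both the fibroblast and the elastic fibre list. All 9 fibroblast markers on the array, of 10 listed, had lower means in knockouts (median -0.34, 0 past the threshold in limma and 4 at an unadjusted p under 0.05), and their summed intensity ran from 21486 to 29835 in knockouts and from 25999 to 33648 in controls. All 9 tenocyte markers had lower means (median -0.90, 0 past the threshold in limma and 8 at an unadjusted p under 0.05), with sums of 15491 to 30915 in knockouts and 29385 to 36188 in controls, so that 4 knockouts lay below every control. None of the 9 markers of either list was below the filter. All marker sums add linear intensities, so the brightest genes of a list weigh most in its sum. The brightest tenocyte marker, Fmod, averaged 14.15 in knockouts and 14.65 in controls (log2). Gsn was the brightest fibroblast marker, C1qb the brightest macrophage marker and Fabp4 the brightest adipocyte marker. For endothelial, smooth muscle, macrophage, adipocyte and Schwann cell markers the medians were -0.21, -0.45, -0.37, -0.09 and -0.40 over 5, 4, 5, 3 and 3 tested genes, with 0 past the threshold in limma. At an unadjusted p under 0.05 these lists held 2, 4, 0, 0 and 0 genes. Summed endothelial intensity was 1888 to 2300.3 in knockouts and 2308 to 2535 in controls, without overlap. Tek, the brightest endothelial marker, averaged 10.08 in knockouts and 10.34 in controls (log2). Of the 5 endothelial markers 4 were lower and 1, Cdh5, was higher by 0.0049. Summed smooth muscle intensity was 2321 to 3463 in knockouts and 3434 to 4237 in controls. The sums of the macrophage (5045 to 9093 in knockouts and 7101 to 10444 in controls), adipocyte (15446 to 20176 in knockouts and 16906 to 19497 in controls) and Schwann cell markers (1275 to 2951 in knockouts and 1448 to 3610.1 in controls) overlapped. Cnn1 of the smooth muscle list and Lep of the adipocyte list were below the filter. Whether these cell types account for any part of the collagen-processing differences was not tested.

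**Figure D3:**
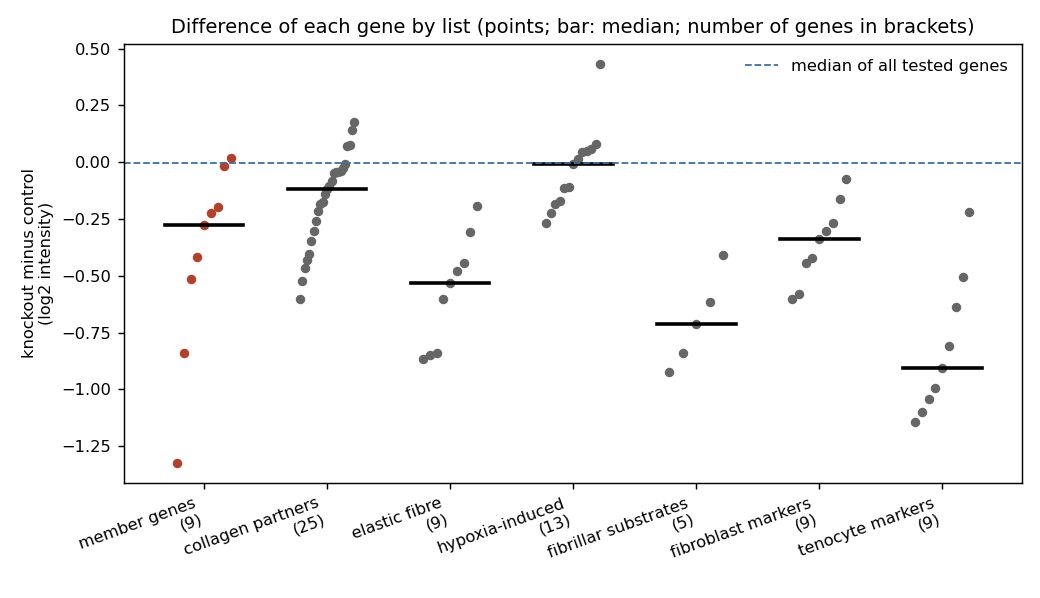
Difference of knockout and control means (vertical axis, log2 intensity) for each tested gene of the member set, 4 lists of related genes and 2 lists of cell markers, with a bar at each median and a dashed line at the median of all tested genes. Medians were -0.28 for the member genes, -0.12 for the collagen partners and -0.01 for the hypoxia-induced genes, beside -0.0049 for all tested genes. Those of the elastic fibre genes, fibrillar collagens, fibroblast markers and tenocyte markers were -0.53, -0.71, -0.34 and -0.90.

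How the members vary among mice of the same group is independent of the group difference that chose them. Each array's deviation from its own group mean was set against that of the hybridisation controls, in 9 relations tested by exact permutation within groups (two-sided, Benjamini-Hochberg over the 9). Plod1 (r = -0.856, rho = -0.855, permutation p = 0.000625 and 0.00167, adjusted 0.00563 and 0.015), Serpinh1 (r = -0.841, rho = -0.842, permutation p = 0.00694 and 0.00493, adjusted 0.0208 and 0.0222) and Loxl1 (r = -0.854, rho = -0.794, permutation p = 0.0126 and 0.0230, adjusted 0.0284 and 0.0517) were lower on arrays with brighter controls. P4ha2 was likewise lower (r = -0.721, rho = -0.661, permutation p = 0.0248 and 0.0396, adjusted 0.0446 and 0.0713). Plod2 was higher on those arrays (r = 0.851, rho = 0.794, permutation p = 0.00694 and 0.0207, adjusted 0.0208 and 0.0517). Its signal lay just above the filter, at a mean of 4.20. Without knockouts 1 and 3, the 2 arrays farthest from the controls' median, r was -0.979 for Plod1 and -0.814 for Serpinh1, -0.603 for Loxl1, -0.441 for P4ha2 and 0.756 for Plod2. The last 3 relations had passed by r and not by rho over all 10 arrays. By r they no longer passed over those 8 arrays (for Plod2, r = 0.756 against 0.851 over all 10, permutation p = 0.0597, adjusted 0.179). Over all tested genes the median r was -0.496, with quartiles of -0.729 and -0.0631, and so a negative r was common over the genes of these arrays.

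The other 4 members showed no such relation that passed by r or by rho. For Cercam r was 0.386 and rho 0.455 (permutation p = 0.278 and 0.200, adjusted 0.358 and 0.266), for P4ha1 -0.339 and -0.406 (0.249 and 0.207, adjusted 0.358 and 0.266), for Lox -0.297 and -0.200 (0.520 and 0.631, adjusted 0.585 and 0.7099), and for Pcolce -0.160 and -0.0788 (0.700 and 0.857, adjusted likewise), each a permutation p for r and then rho. Without the same 2 arrays r was 0.338 for Cercam, -0.292 for P4ha1, -0.423 for Lox and 0.0714 for Pcolce. With the controls as a covariate the group differences were -1.34 for Cercam, -0.81 for Lox, -0.51 for Pcolce and -0.37 for Serpinh1. Without it they were -1.32, -0.84, -0.51 and -0.42. Those of Loxl1, P4ha2 and Plod1 went from -0.28, -0.22 and -0.20 to -0.21, -0.19 and -0.16. That of P4ha1 went from -0.02 to -0.0076, and that of Plod2 from 0.02 to -0.12.

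**Figure D4:**
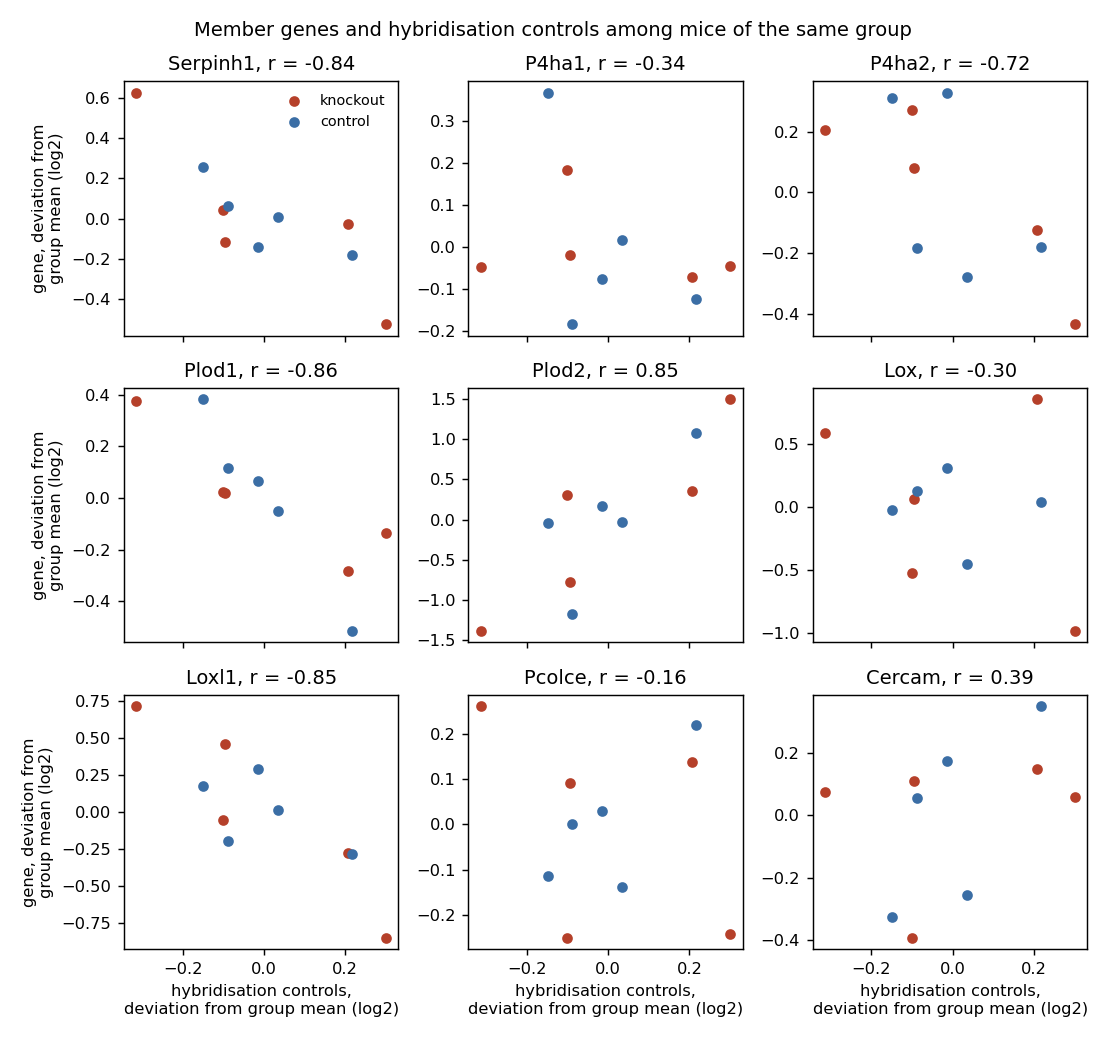
Deviation of each member gene from its group mean (vertical axis, log2 intensity) against that of the hybridisation controls (horizontal axis, log2 intensity), with 1 point for each of the 5 knockout and 5 control arrays in each panel. Serpinh1, Plod1 and Loxl1 slope down and Plod2 slopes up with points near a line, while Lox slopes down (-0.84 log2 per log2) with wide scatter and Pcolce has a slope of -0.15. The Plod2 probe set lies just above the filter on dim signal, at a mean of 4.20.

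Members did not vary as 1 block among mice of the same group. Over the 36 pairs of members the median Pearson's r of deviations across the 10 arrays was 0.155, against 0.172 over all pairs of tested genes, and these correlations are descriptions of arrays that share that component. Lox and Pcolce, both of which act on collagen outside the cell, were the most alike (r = 0.823), followed by Serpinh1 with Loxl1 (0.746), P4ha2 with Loxl1 (0.742) and Pcolce with Cercam (0.732). The pairs of lowest r were Cercam with P4ha1 (-0.805), Loxl1 with Plod2 (-0.759) and Serpinh1 with Plod2 (-0.756). Plod2 was just above the filter on dim signal.

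**Figure D5:**
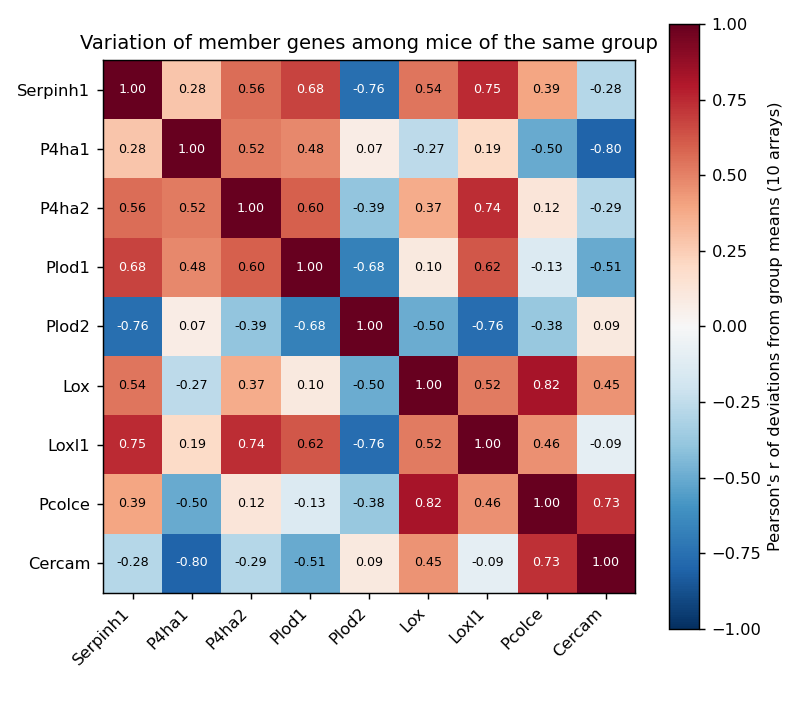
Pearson's r between member genes (both axes) of deviations from group means over 10 arrays, coloured from -1 to 1. Lox and Pcolce are the most alike at 0.82, and Plod2, dim at a mean of 4.20, runs opposite to Serpinh1, Plod1 and Loxl1.

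The 2 genes whose deviations were most like those of each member, over all tested genes and the same 10 arrays, were listed as a description. They were Antxr1, a collagen-binding receptor (r = 0.952), and the tendon gene Tnmd (0.950) for Lox, and the matrix gene Abi3bp (0.947) and Gpm6b (0.942) for Pcolce. For Cercam they were the chaperone gene Hspa2 (0.968) and the myosin light chain gene Myl12a (0.932). Those of Serpinh1 were Naa38 (0.956) and Ces1e (0.952), those of P4ha1 Lrrc40 (0.956) and Alg10b (0.907), and those of P4ha2 Fcgr2b (0.932) and Edem1 (0.932). Plod1 was nearest to Pcsk7 (0.992) and Ppp1ca (0.981), Loxl1 to Tbccd1 (0.966) and Yrdc (0.962), and the dim Plod2 probe set to Vmn1r51 and Platr22 (0.980 and 0.979). No p was computed, and the arrays share the first principal component.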

How the data were processed

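Gastrocnemius RNA of 5 knockout and 5 control mice was profiled on 1 array each. The deposited values are linear microarray intensity per probe set, made by the authors with GCRMA per the submitters' processing notes. That method models background by probe sequence, then normalizes and summarises, and it compresses differences of dim probe sets toward a floor. No version is given in the sources used here. The log2 was taken here without further normalization, and the number of arrays, not a read depth, limits precision.

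Names came from the platform annotation (34958 probe sets with 1 symbol, 932 with several, 9211 not listed). Gene identifiers of 34754 probe sets matched RefSeq GRCm38.p6 and changed 0 symbols. Probe sets averaging at least 4 (log2) were kept and 64 array controls left out. The group test was limma 3.58.1 (R 4.3.3) (two-sided, Benjamini-Hochberg over 21154 probe sets, threshold 0.05), tested on simulated data. The simulated noise was independent between probe sets, whereas these arrays share a first principal component. It therefore does not show the error rate for these arrays. The brightest probe set stood for a gene. From each list, genes past the threshold and up to 4 others of lowest p were named, besides all members. Members and lists were chosen with earlier results of these data known. Relations to hybridisation controls used exact permutation within groups. Protein comparisons were not made. Figures used matplotlib 3.10.9. Alternatives covered filters, normalization, array weights, the variance model, a replicate block, hybridisation controls, the floor and single arrays.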

Additional observations from a re-analysis of the deposited data

Results flagged for a closer look

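In 3 of 26 groups of 5 arrays examined over the 13 member probe sets, 1 array lay far from the others of its group by Dixon's criterion, where chance gives about 1 in 20. Cercam was 4.73 (log2 intensity) in knockout 2, against 5.18 to 5.27 in the other knockouts, and without that array its difference was -1.23. P4ha1 was 8.10 in knockout 2, against 7.84 to 7.90 in the other knockouts. The second Serpinh1 probe set was 9.21 in control 1, against 8.89 to 8.94 in the other controls, and without it the difference was -0.43.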

How the results depend on the processing

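The count of 21 called probe sets was 11 with no filter, 36 after quantile normalization, 58 with a variance trend and robust fit, 67 with array weights, 99 with the hybridisation control covariate, 5 without the 3 arrays of highest controls (knockouts 1 and 3, control 3) and 1 with the replicate number as a block. Single arrays left out gave 1 to 17. The count of 1 member probe set, Cercam, became 0 with no filter (adjusted p = 0.0529), with the replicate block (adjusted p = 0.193) and without those 3 arrays (adjusted p = 0.111). It was also 0 with a filter of 6, which leaves Cercam out, and 0 to 1 with single arrays left out. Over its 19 alternatives its adjusted p ran from 0.00929 to 0.193. Partner genes past the threshold were 1 with the variance trend (Sparc), and 0 to 1 with single arrays left out. The latter was Creb3l1, which passed the filter only through its controls. Between 7 and 9 member genes had lower means in every alternative. In at least 1 alternative the sign turned for P4ha1 (3 of 20), Plod2 (7 of 19) and both Loxl1 probe sets (1 each). The Pcolce relation to the hybridisation controls turned from -0.160 to 0.0714 without knockouts 1 and 3. Same-numbered arrays deviated with correlations of -0.51, 0.13, 0.62, -0.20 and 0.19, and only knockout 3 and control 5 matched their own number best, so the numbers were not taken as pairs. Causes of these changes were not tested. Plod2 and the second Loxl1 probe set averaged 4.20 and 4.17, just above the filter.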
